A study of Mus musculus with 18 samples.

Results

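UDP-glucuronosyltransferases (UGTs) are enzymes of the endoplasmic reticulum that join glucuronic acid, taken from UDP-glucuronic acid, to bilirubin, steroids, fatty acids and drugs, so that these leave the body in bile or urine. The liver is a main site of this work. The Ugt1a enzymes come from a single locus in which each has a first exon of its own and all share the later exons, while the Ugt2 enzymes come from separate genes that lie side by side. The members described here were picked by symbol: Ugt1a1, Ugt2a3, Ugt2b1, Ugt2b5, Ugt2b34, Ugt2b35, Ugt2b36 and Ugt2b38. They are 8 of the 21 UGT rows and of the 19057 rows of the liver expression table, and all 8 passed the filter on low values.

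The values were RPKM, that is reads scaled to gene length and to the reads of the library, in 18 livers of ICR mice, an outbred stock, at 10 weeks of age, with 3 mice in each of 6 groups. Con mice had neither agent, and AOS mice had alginate oligosaccharide at 10 mg/kg. STZ mice had streptozotocin, a toxin of insulin-producing beta cells used as a model of type 1 diabetes, and STZ+AOS mice had both agents. Con-FMT and A10-FMT mice had STZ followed by gut microbiota, taken from control donors for Con-FMT and from donors given AOS at 10 mg/kg for A10-FMT; by the study's methods the small intestinal content of each donor group was pooled and all mice of its 4 groups were male. AOS and STZ+AOS are known from the sample labels alone. All transplanted mice had STZ, so no group shows a transplant without it.

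The RPKM of a library summed to 621121 to 806937, and 9955 to 10409 genes were at 1 RPKM or more. Hepatocyte markers defined the tissue, with a sum over 6 genes of 33298 to 54485 RPKM in every library, against at most 41.3 for 5 cholangiocyte markers, 82.4 for 5 Kupffer cell markers, 61.6 for 5 endothelial markers and 151 for 5 stellate cell markers; the sum of 5 erythroid markers ran from 280 to 9167. Among 5 intestinal markers Cdx2, Lct and Vil1 stayed under 1 RPKM everywhere, and the other two, Apoa4 and Fabp2, are made by liver too. In bulk liver, fewer cells of a type and less RNA per cell cannot be told apart. STZ mouse 3 was the lowest of the STZ mice for Ugt1a1 and the highest for every other member. It stood well apart from the other STZ mice in Ugt1a1, Ugt2b1, Ugt2b5 and Ugt2b38, and less or not at all in the rest. The values of the 8 members that rest on it are therefore given with and without it.

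Ugt1a1 lies on chromosome 1 (88211959 to 88218997, plus strand, mm10). The other 7 lie on chromosome 5 between 86889767 and 87424203, in the order Ugt2b34, Ugt2b1, Ugt2b35, Ugt2b36, Ugt2b5, Ugt2a3 and Ugt2b38; Ugt2b35 is on the plus strand and the rest are on the minus strand. The bases just before the RefSeq start (GRCm38.p6) are shown for the gene that rose most, for the gene that fell most, for the 2 genes whose start regions are nearest to that one in sequence, and for Ugt2b35, which rose. Each line reads 5′ to 3′ on the strand of the gene and ends at the base before the start. Capitals mark GTTAA, or TTAAC where it lies on the other strand, and AGGTCA.
Ugt1a1 (chr1:88211709-88211958): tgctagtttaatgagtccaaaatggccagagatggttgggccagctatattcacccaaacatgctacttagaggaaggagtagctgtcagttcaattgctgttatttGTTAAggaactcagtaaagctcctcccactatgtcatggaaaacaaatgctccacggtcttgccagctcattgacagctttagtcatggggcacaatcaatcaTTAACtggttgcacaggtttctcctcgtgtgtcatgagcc
Ugt2b38 (chr5:87424204-87424303): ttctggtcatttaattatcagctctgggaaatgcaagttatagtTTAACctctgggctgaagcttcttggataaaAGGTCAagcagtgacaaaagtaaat
Ugt2b5 (chr5:87140341-87140440): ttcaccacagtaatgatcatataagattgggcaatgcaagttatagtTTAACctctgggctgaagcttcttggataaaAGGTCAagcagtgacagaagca
Ugt2b36 (chr5:87092556-87092655): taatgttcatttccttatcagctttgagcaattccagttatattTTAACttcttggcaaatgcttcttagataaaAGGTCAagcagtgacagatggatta
Ugt2b35 (chr5:87000760-87000859): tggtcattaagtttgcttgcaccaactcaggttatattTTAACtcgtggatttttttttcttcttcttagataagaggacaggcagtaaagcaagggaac

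The start regions of Ugt2b36 and Ugt2b38 were identical at 77 of their last 100 bases, and those of Ugt2b5 and Ugt2b38 at 75 after a shift of 3 bases. Every other pair with Ugt2b38 had 29 to 44 identical bases. The 3 sequences nearest to each other thus belong to a gene at the bottom of the range of levels and to both genes at the top. In all, 5 sets of letters were searched on both strands of the 250 bases before each start, and they were chosen after these sequences had been seen. GTTAA, a part of the site of the liver factor HNF1, occurred in all 8 regions and in 21.7% of 32851 RefSeq start regions of the same length. At least 1 match lay 36 to 82 bases before the start in each of the 8, and Ugt1a1 had another further upstream. GTTAAT, which contains it, occurred in 2 of 8 (Ugt1a1 and Ugt2a3) against 6.43% of all regions. AGGTCA, a nuclear receptor motif, occurred in 4 of 8, namely the 4 chromosome 5 sequences printed above, against 14.0%; in Ugt2b35 it lay further upstream than the stretch shown. GCGTG, the core of the AHR element, occurred in 0 of 8 against 28.2%, and GTTAATNATTAAC, the HNF1 full site, in 0 of 8 against 0.00913%. These are matches of letters, and binding was not measured.

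Shared sequence limits how far the genes can be told apart by reads. Of the 50-base windows of the transcript, 58.7% in Ugt1a1 matched another Ugt1a gene within 2 mismatches, since these genes share their later exons. For Ugt2b5 the share was 78.6% and for Ugt2b38 74.5%, mostly with each other (66.2% and 65.0%). Ugt2b37, which is not among the members, matched 51.1% of the windows of Ugt2b5 and 44.5% of those of Ugt2b38. The share was 22.2% for Ugt2b36 and 1.19% to 8.64% for the other 4 genes. How the authors assigned reads that fit several genes is not given in the sources used here, so the values of Ugt1a1, Ugt2b5 and Ugt2b38 are uncertain to that extent.

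Ugt1a1, the enzyme that conjugates bilirubin, was the member with the largest rise after STZ. Its RPKM was 48.1, 84.9 and 70.5 in the Con mice and 388, 315 and 176 in the STZ mice, so the lowest STZ mouse, mouse 3, was above the highest Con mouse. The AOS mice had 86.7, 77.7 and 72.5 RPKM and the STZ+AOS mice 348, 280 and 267 RPKM, again without overlap. The A10-FMT mice had 178, 172 and 196 RPKM and the Con-FMT mice 162, 110 and 137 RPKM. Both transplant groups lay wholly above Con, and the Con-FMT mice lay wholly below STZ while the A10-FMT mice overlapped it. By group mean the order was STZ+AOS (298 ± 43.4 RPKM, SD, n = 3), STZ (293 ± 108), A10-FMT (182 ± 12.8), Con-FMT (136 ± 25.8), AOS (79.0 ± 7.16) and Con (67.8 ± 18.5). STZ+AOS and STZ did not differ beyond their spread, nor did AOS and Con.

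In the fit over all 10804 genes, Ugt1a1 was 4.32-fold higher in STZ than in Con by group means, a difference of 2.06 on the log2(RPKM + 1) scale (SE 0.25, limma adjusted p = 6.92e-05; 2.39 without STZ mouse 3). Between STZ+AOS and AOS, which are other mice, the difference was 1.90 (SE 0.25, limma adjusted p = 0.00016). Other UGT genes of the same locus, which share the later exons, were measured beside it. Ugt1a9 had 140.6 ± 28.0 RPKM in Con and 211 ± 15.0 in STZ (log2 difference 0.60, limma adjusted p = 0.0137), but 180 ± 5.30 in AOS and 189 ± 46.1 in STZ+AOS (0.04, adjusted p = 0.872). The difference between these changes of Ugt1a9 was -0.56 (SE 0.24, limma adjusted p = 0.856), so the data do not show that they differ.

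**Figure D1:**
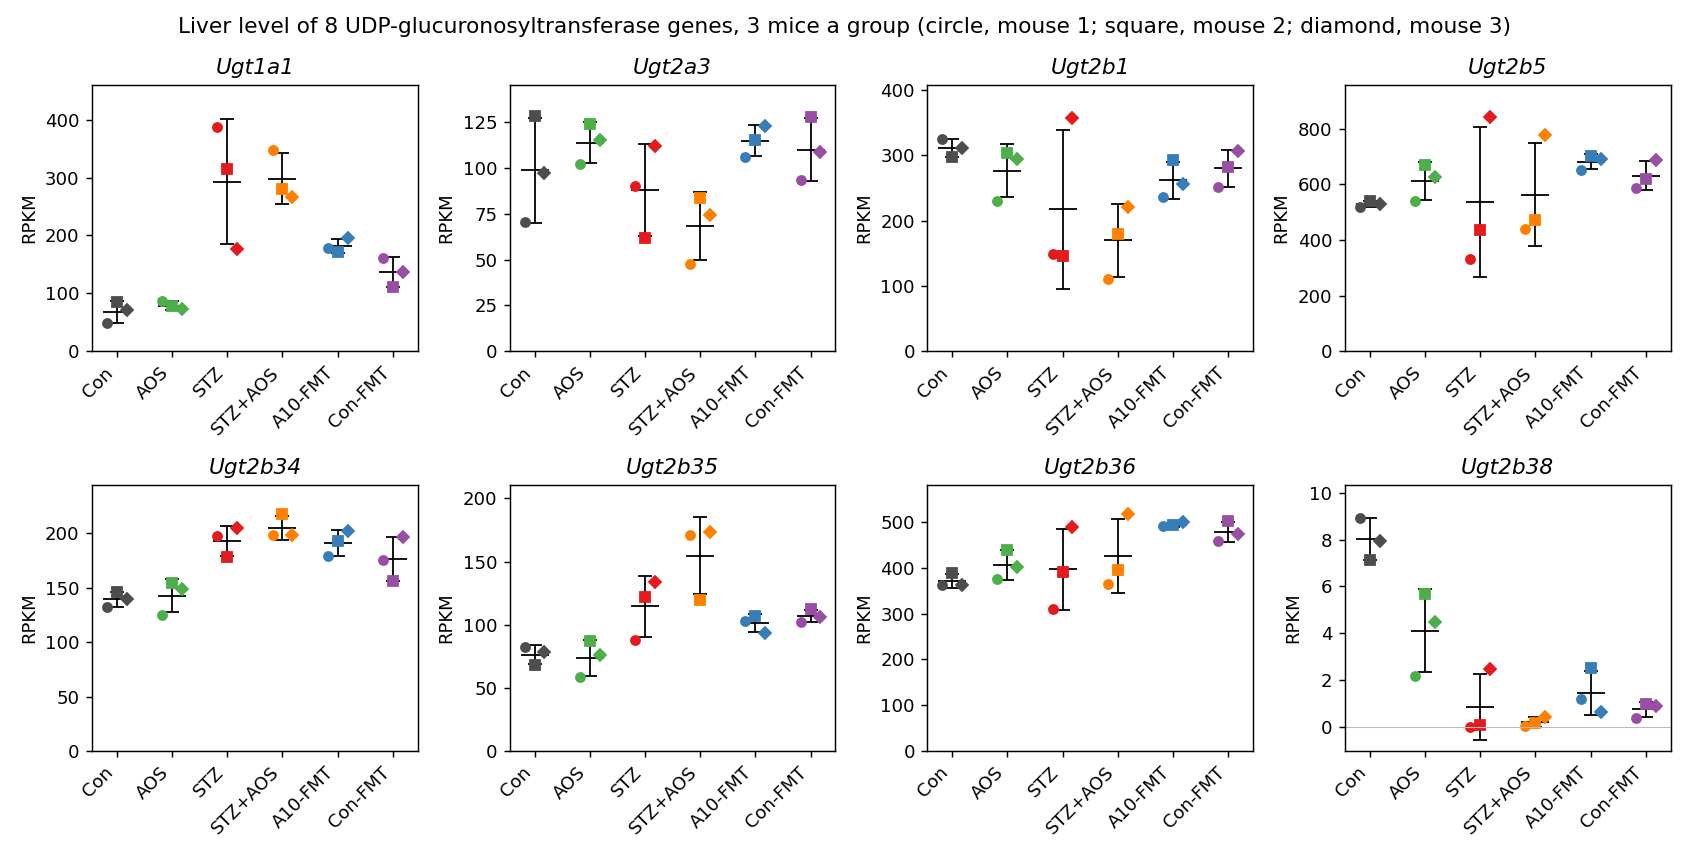
RPKM (vertical axes, starting at 0 except for Ugt2b38, where an error bar passes below it) of the 8 genes in each mouse of the 6 groups; symbols mark mouse 1, 2 and 3, and black lines the mean with its SD (n = 3). Ugt1a1 is higher and Ugt2b38 lower in all 4 groups that had STZ than in Con, and STZ mouse 3 (red diamond) is the lowest of the 3 STZ mice for Ugt1a1 and the highest for each of the other 7 genes.

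Ugt2b38 was the member that fell most, and its level was the lowest of the 8 in every library. It had 8.93, 7.15 and 7.96 RPKM in the Con mice and was listed at 0, 0.09 and 2.48 RPKM in the STZ mice. The AOS mice had 2.18, 5.67 and 4.49 RPKM and the STZ+AOS mice 0.04, 0.16 and 0.44 RPKM. It had 1.20, 2.51 and 0.64 RPKM in the A10-FMT mice and 0.39, 0.98 and 0.89 RPKM in the Con-FMT mice. All 12 mice that had STZ were below all Con mice; the highest transplanted mouse had 2.51 RPKM and the lowest Con mouse 7.15. The highest STZ mouse, mouse 3, lay above the lowest AOS mouse, but the STZ+AOS mice lay wholly below AOS.

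The log2 difference of Ugt2b38 was -2.53 between STZ and Con (SE 0.40, limma adjusted p = 0.000419; -3.11 without STZ mouse 3) and -2.02 between STZ+AOS and AOS (SE 0.40, adjusted p = 0.00167). The mean in STZ was 0.107 times that in Con, which the log2(RPKM + 1) scale understates because the values lie near the added 1. One read of this gene is worth about 0.0507 RPKM, which puts its libraries at 0 to 187 estimated reads, against 1056 or more for every other member. It was at 0 in the STZ mouse in which Ugt2b5, its closest relative in sequence, had 331 RPKM. AOS against Con gave 4.11 ± 1.78 against 8.01 ± 0.891 RPKM without overlap, as for 5.23% of all genes, with a log2 difference of -0.88 and a limma adjusted p of 0.67 (unadjusted 0.0423).

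Ugt2b34 rose by a smaller amount and with little spread. It had 132, 146 and 139.6 RPKM in the Con mice, 198, 178 and 205 in the STZ mice, 125, 154 and 149 in the AOS mice and 199, 218 and 199 in the STZ+AOS mice. All STZ and STZ+AOS mice were above all Con and AOS mice. The A10-FMT mice had 179, 193 and 202 RPKM and the Con-FMT mice 175, 156 and 197 RPKM, all above Con. The log2 difference was 0.47 in STZ against Con (SE 0.11, limma adjusted p = 0.00493) and 0.53 in STZ+AOS against AOS (SE 0.11, adjusted p = 0.00254).

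Ugt2b35, the only one of the 7 on the plus strand of chromosome 5, had 82.2, 67.8 and 78.4 RPKM in the Con mice and 87.6, 122 and 134 RPKM in the STZ mice. It had 58.6, 87.0 and 76.0 RPKM in the AOS mice and 171, 119 and 174 RPKM in the STZ+AOS mice. Neither pair of groups overlapped. The log2 difference was 0.56 in STZ against Con (SE 0.18, limma adjusted p = 0.0225) and 1.05 in STZ+AOS against AOS (SE 0.18, adjusted p = 0.000691), and the difference between these was 0.49 (SE 0.25, adjusted p = 0.856). Without STZ mouse 3 the first was 0.44 with an adjusted p of 0.0726, and the call was also lost without STZ mouse 2 (0.51, adjusted p = 0.084) and without Con mouse 2 (0.48, adjusted p = 0.0774). The A10-FMT mice had 103, 107 and 93.0 RPKM and the Con-FMT mice 102, 112 and 106 RPKM, all above Con.

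The values of the whole table shifted with STZ as well. The median gene was 0.21 higher on the log2 scale in STZ than in Con and also 0.21 higher in STZ+AOS than in AOS. Relative to that median, Ugt1a1 rose by 1.84 and 1.69, Ugt2b34 by 0.26 and 0.31, and Ugt2b35 by 0.35 and 0.84. With each library rescaled by its median ratio to the others, Ugt2b34 was 0.20 higher in STZ than in Con (limma adjusted p = 0.22) and 0.28 higher in STZ+AOS than in AOS (adjusted p = 0.0906), and Ugt2b35 0.30 (adjusted p = 0.293) and 0.81 (adjusted p = 0.00867). Ugt1a1 and Ugt2b38 kept their calls, with 1.79 and -2.69 in STZ against Con and 1.65 and -2.13 in STZ+AOS against AOS.

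**Figure D2:**
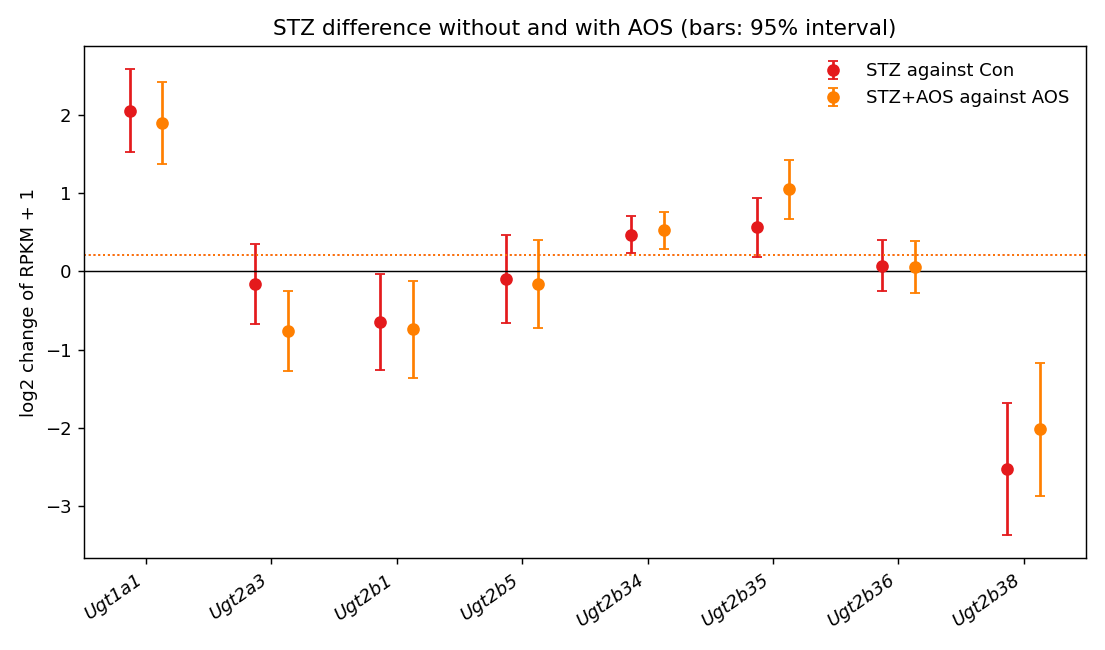
Difference on the log2(RPKM + 1) scale (vertical axis) between STZ and Con (red) and between STZ+AOS and AOS (orange) for the 8 genes; points are limma estimates, bars their 95% intervals, and dotted lines the median of all 10804 genes, at 0.21 in both. Ugt1a1 lies near 2 and Ugt2b38 near -2 in both pairs, Ugt2b34 and Ugt2b35 lie above the dotted lines, and the intervals of Ugt2b5 and Ugt2b36 span 0.

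Ugt2b1 had 326, 298 and 312 RPKM in the Con mice and 149, 146 and 358 RPKM in the STZ mice. STZ mice 1 and 2 lay below every Con mouse, and mouse 3 lay above every one. The AOS mice had 230, 304 and 295 RPKM and the STZ+AOS mice 110, 179 and 221 RPKM, without overlap. The log2 difference was -0.65 in STZ against Con (SE 0.29, limma adjusted p = 0.089) and -0.74 in STZ+AOS against AOS (SE 0.29, adjusted p = 0.0544), neither past the threshold of 0.05. Without STZ mouse 3 the first was -1.08 (adjusted p = 0.00151). With median-ratio scaling they were -0.92 (adjusted p = 0.0444) and -0.99 (adjusted p = 0.032), and STZ+AOS against Con gave -0.93 as deposited (adjusted p = 0.0162), a call lost without STZ+AOS mouse 1 (-0.64, adjusted p = 0.0838). STZ+AOS against AOS also passed without STZ+AOS mouse 3 (-0.96, adjusted p = 0.0295), and at an unchanged -0.74 without any 1 of the STZ mice (adjusted p = 0.00838 to 0.0472), which enter only the estimate of spread.

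Ugt2a3 had 70.6, 128 and 97.5 RPKM in the Con mice and 90.2, 62.0 and 112 RPKM in the STZ mice, which overlapped (log2 difference -0.16, limma adjusted p = 0.621, and -0.35, adjusted p = 0.267, without STZ mouse 3). It had 102, 124 and 115 RPKM in the AOS mice and 47.9, 83.6 and 74.2 RPKM in the STZ+AOS mice, which did not overlap. That difference was -0.76 (SE 0.24, adjusted p = 0.0227); it lost its call without STZ+AOS mouse 1 (-0.52, adjusted p = 0.105), AOS mouse 2 (-0.69, 0.077 likewise) or AOS mouse 3 (-0.75, 0.0601). The difference between both changes was -0.59 (SE 0.34, adjusted p = 0.856), so the data do not show that they differ. The transplanted mice had 93.4 to 128 RPKM, within the range of Con.

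Ugt2b5 and Ugt2b36 had the highest levels of the 8 in Con, and neither passed the test in STZ against Con or in STZ+AOS against AOS. Ugt2b5 had 516, 539 and 528 RPKM in the Con mice and 331, 434 and 841 RPKM in the STZ mice, so that mice 1 and 2 were below and mouse 3 above every Con mouse. The STZ+AOS mice, with 439, 472 and 775 RPKM, were split in the same way, again with mouse 3 on top. The log2 difference was -0.09 in STZ against Con (95% interval -0.66 to 0.47, limma adjusted p = 0.804) and -0.16 in STZ+AOS against AOS (adjusted p = 0.65). Without STZ mouse 3 the first was -0.48 (adjusted p = 0.0669). Without mouse 3 of STZ and mouse 3 of STZ+AOS, a setting added after the data were seen, Ugt2b5 passed as lower in both, with -0.48 (adjusted p = 0.00886) and -0.42 (adjusted p = 0.024). The AOS mice had 539 to 671 RPKM, the A10-FMT mice 651 to 701 and the Con-FMT mice 587 to 688.

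Ugt2b36 had 364, 389 and 363 RPKM in the Con mice and 311, 392 and 489 RPKM in the STZ mice, with a log2 difference of 0.07 (95% interval -0.26 to 0.40, limma adjusted p = 0.741). This difference was -0.20 with median-ratio scaling (adjusted p = 0.418), and -0.09 without STZ mouse 3 (adjusted p = 0.637), so its direction depended on the scaling and on this mouse. The AOS mice had 375, 440 and 403 RPKM and the STZ+AOS mice 364, 396 and 519 RPKM. The A10-FMT mice had 491, 493 and 499.8 RPKM, a range narrower than in any other group, and the Con-FMT mice 459, 502 and 474 RPKM. Both transplant groups were wholly above Con, and A10-FMT was also wholly above STZ (as were 7.52% of all genes), by 0.34 on the log2 scale (adjusted p = 0.25).

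In counts, 3 of 8 members were higher in STZ than in Con (Ugt1a1, Ugt2b34 and Ugt2b35) against 30.8% of all tested genes, and 1 was lower (Ugt2b38) against 5.25%. The same 3 were wholly above Con, as were 40.6% of all genes, and Ugt2b38 was wholly below it, as were 6.98%. The median log2 difference of the 8 was -0.01, against 0.21 over all genes. With median-ratio scaling 1 was higher (Ugt1a1) and 2 were lower (Ugt2b1 and Ugt2b38). At that scaling 2637 of all 10804 genes were called, about as many higher as lower. The share of higher genes among all called genes went from 85.5% to 50.0%. A near-even split is largely set by this scaling, which assumes that the median gene did not change, and is not a result of its own. Between STZ+AOS and AOS 3 were higher, against 31.8% of all genes, and 2 were lower (Ugt2a3 and Ugt2b38), against 6.1%. The same 3 were higher in both pairs of groups. Here 3 members were wholly above AOS (40.5% of all genes) and 3 wholly below it (8.61%), Ugt2b1 being the third. The median log2 difference of the 8 was -0.05, against 0.21. STZ+AOS against Con, which shares mice with both, gave the same 3 higher (41.2% of all genes) and Ugt2b1 and Ugt2b38 lower (6.17%). At the limits of the authors, an adjusted p of 0.001 or less and a log2 difference of 1 or more, 2 members remained in STZ against Con (2.83% of all genes), Ugt1a1 and Ugt2b38, and 2 in STZ+AOS against AOS (2.76%), Ugt1a1 and Ugt2b35. The count was 2 in STZ+AOS against Con (4.83%), and 0 in A10-FMT (0.722%) and Con-FMT (0.537%) against Con.

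AOS alone was set against Con, and STZ+AOS against STZ. No member passed in either comparison (limma), where 0.00926% and 0% of all genes passed. With no adjustment, 1 member in each would have been under 0.05, Ugt2b38 in the first and Ugt2b35 in the second (log2 difference 0.43), of 781 and 655 genes in all. For Ugt1a1 the log2 difference was 0.25 in AOS against Con (95% interval -0.28 to 0.78) and 0.09 in STZ+AOS against STZ (-0.44 to 0.62). Without STZ mouse 3 no member passed in STZ+AOS against STZ either. The test of whether STZ changed a gene differently with and without AOS found 0 members and 0% of all genes (0 members and 583 genes at an unadjusted p under 0.05). With 3 mice a group the intervals of Ugt1a1 leave room for differences as large as the 0.47 of Ugt2b34 in STZ against Con. The intervals of Ugt2b34 itself were narrower and did not reach that size. They were -0.21 to 0.27 in AOS against Con and -0.15 to 0.32 in STZ+AOS against STZ.

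**Figure D3:**
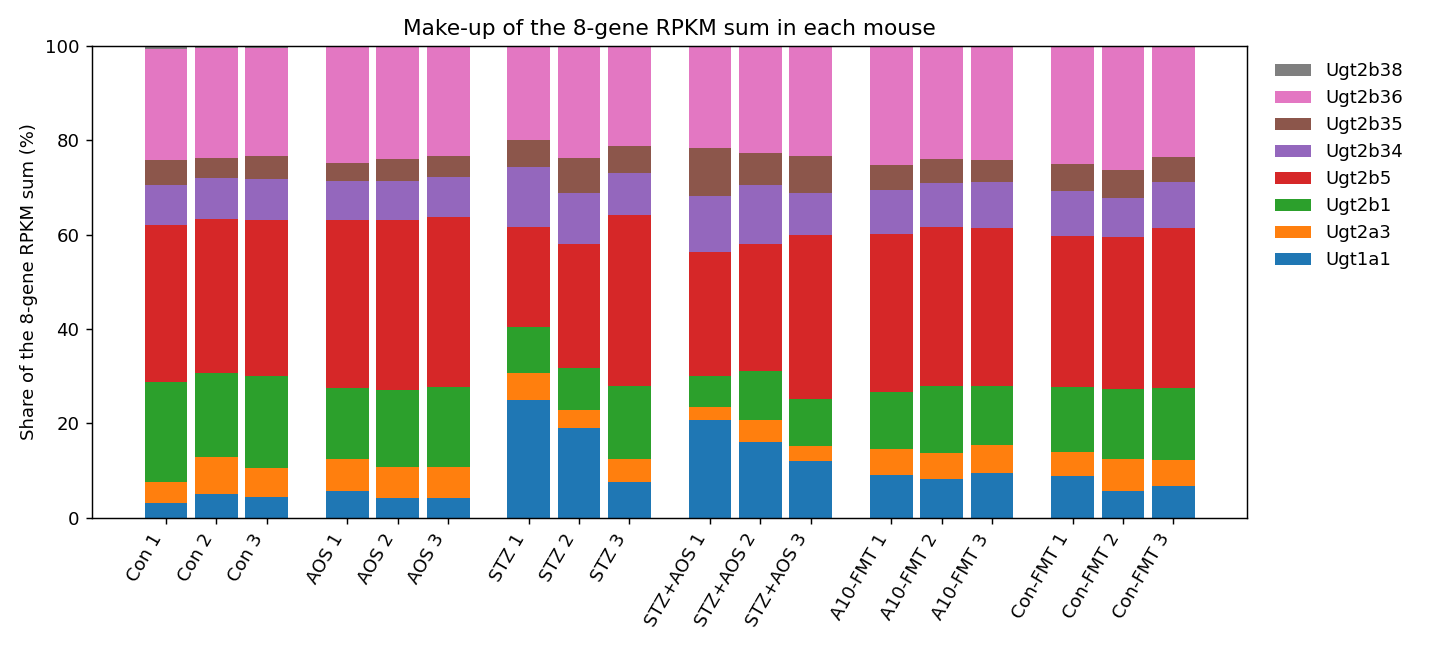
Share (vertical axis, percent) of each gene in the RPKM sum of the 8 genes, with 1 bar per mouse and 6 groups of 3 bars. The share of Ugt1a1 (blue, at the base) is 3.11% to 5.12% in Con and 7.61% to 25.0% in STZ, and Ugt2b5 and Ugt2b36 form more than 40% of every bar together.

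The sum of the 8 genes, a length-corrected level, was 1602 ± 56.1 RPKM in Con, 1707 ± 175 in AOS, 1840 ± 416 in STZ, 1886 ± 300 in STZ+AOS, 2028 ± 73.0 in A10-FMT and 1919 ± 94.9 in Con-FMT. The STZ mice overlapped Con, from 1554 to 2317 RPKM against 1548 to 1660, while STZ+AOS, from 1679 RPKM, and both transplant groups were wholly above Con. The median of all genes was also above Con, by 0.27, 0.16 and 0.18 on the log2 scale in STZ+AOS, A10-FMT and Con-FMT. In A10-FMT and Con-FMT 41.3% and 40.1% of all genes lay wholly above Con. The sum was neither rescaled nor tested. The make-up differed as well. Ugt1a1 was 4.21% of the sum on average in Con, 17.2% in STZ, 16.2% in STZ+AOS, 8.98% in A10-FMT and 7.14% in Con-FMT. Ugt2b1 was 19.5% in Con, 11.3% in STZ and 8.91% in STZ+AOS, and 12.9% and 14.6% in A10-FMT and Con-FMT. Ugt2b36 stayed between 20.0% and 26.3% in all 18 livers.

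Both transplants were set against STZ to ask whether they moved what STZ had moved. No member passed in either (limma). Of all genes 0.491% passed in A10-FMT against STZ, and the share was 0.167% for Con-FMT. With no adjustment, 2 members would have been under 0.05 for A10-FMT (Ugt1a1 and Ugt2b36, of 2041 genes) and 1 for Con-FMT (Ugt1a1, of 2028 genes). Ugt1a1 was lower than in STZ by 0.61 on the log2 scale in A10-FMT (95% interval of the difference -1.14 to -0.08, adjusted p = 0.208). In Con-FMT the difference was -1.04 (-1.57 to -0.51, adjusted p = 0.0793), with the 3 Con-FMT mice below the 3 STZ mice, as held for 9.37% of all genes. Both comparisons share the STZ mice.

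The outcome turned on STZ mouse 3. Without it, 9.22% of all genes passed in A10-FMT against STZ and 5 of 8 members did: Ugt1a1 was lower (-0.94, limma adjusted p = 0.0147), and Ugt2b1 (0.82, adjusted p = 0.0318), Ugt2b5 (0.84, 0.0193 likewise), Ugt2b36 (0.50, 0.0431) and Ugt2b38 (1.16, 0.0304) were higher. In Con-FMT against STZ 12.2% of all genes passed and 3 of 8 members, with Ugt1a1 lower (-1.37, adjusted p = 0.00166) and Ugt2b1 (0.92, 0.0173 likewise) and Ugt2b5 (0.73, 0.030) higher. Leaving out STZ mouse 1 or mouse 2 in its place gave 0 members in both. Ugt2b34 passed in neither, with log2 differences from STZ of -0.01 in A10-FMT and -0.14 in Con-FMT over all mice and 0.03 and -0.10 without STZ mouse 3. Why this mouse stood apart was not tested.

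**Figure D4:**
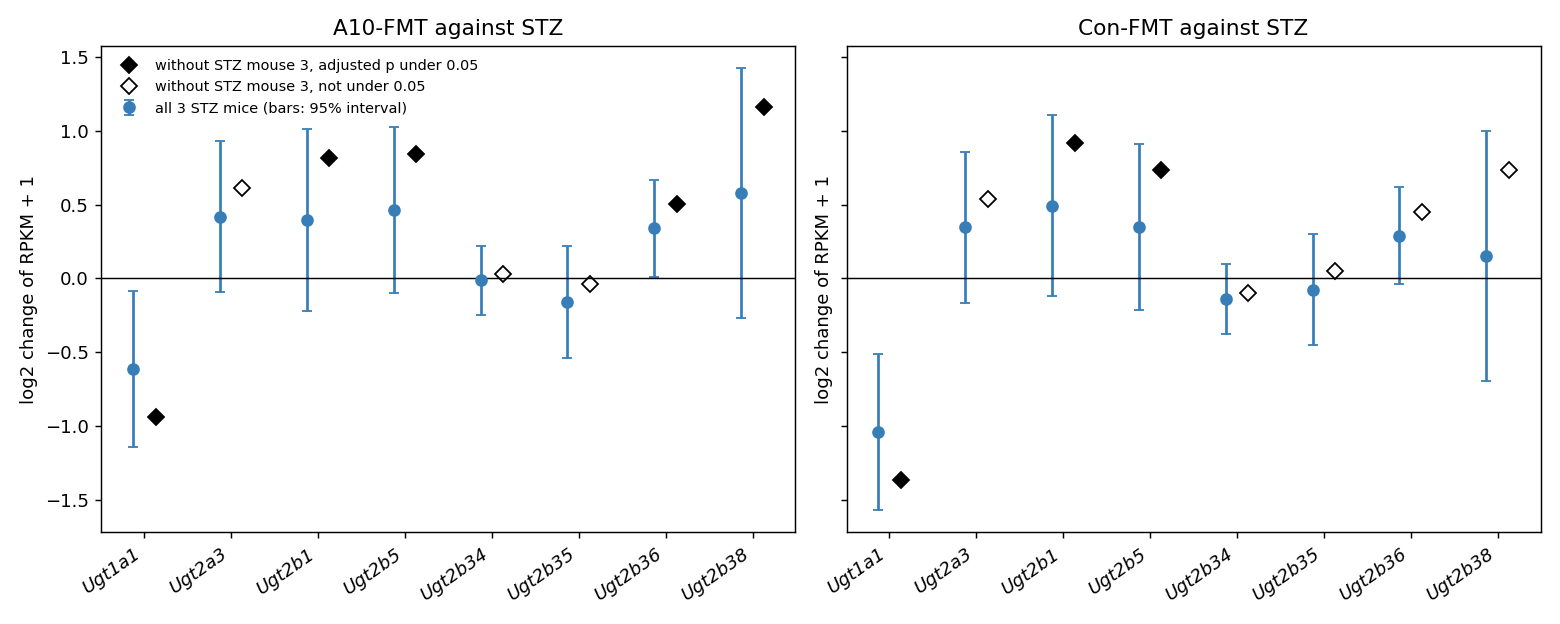
Difference on the log2(RPKM + 1) scale (vertical axes) between A10-FMT and STZ (left) and between Con-FMT and STZ (right) for the 8 genes; blue points with 95% intervals use all 3 STZ mice, and diamonds leave out STZ mouse 3, filled where the limma adjusted p is under 0.05. None of the 8 blue points on either side passed; 5 diamonds on the left and 3 on the right are filled.

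Against Con, which asks what remained different after the transplants, 2 members were higher in A10-FMT (Ugt1a1 by 1.45, limma adjusted p = 0.00194; Ugt2b34 by 0.46, adjusted p = 0.0137) where 14.7% of all genes were. Ugt2b38 was lower (-1.95, adjusted p = 0.0057) where 2.37% of all genes were. In Con-FMT the same 2 were higher (Ugt1a1 by 1.02, adjusted p = 0.0143; Ugt2b34 by 0.33, adjusted p = 0.0497), against 16.3% of all genes, and Ugt2b38 was lower (-2.37, adjusted p = 0.00207), against 1.78%. The median gene was 0.16 and 0.18 higher, and with median-ratio scaling Ugt2b34 lost its call in both (adjusted p = 0.201 and 0.671) while Ugt1a1 and Ugt2b38 kept theirs. For A10-FMT the call of Ugt2b34 was also lost without Con mouse 1 (0.42, adjusted p = 0.0625) or A10-FMT mouse 3 (0.42, adjusted p = 0.0644), and that of Ugt2b38 with a pseudocount of 0.1 (adjusted p = 0.0549). For Con-FMT the calls of Ugt1a1 and Ugt2b34 were both lost without Con mouse 1 and without Con-FMT mouse 1, and that of Ugt2b34 without most other single mice. The members wholly above Con numbered 5 in each transplant group, where 41.3% and 40.1% of all genes were; wholly below it were Ugt2b1 and Ugt2b38 in A10-FMT (7.13%) and Ugt2b38 in Con-FMT (5.2%). A10-FMT and Con-FMT, set against each other, differed in 0 members and 0% of all genes (0 members and 245 genes at an unadjusted p under 0.05); for Ugt1a1 the log2 difference was 0.43 (95% interval -0.10 to 0.96).

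The rest of the glucuronidation pathway was described from lists of genes. The counts of these lists stand beside the shares over all tested genes. In STZ against Con 30.8% of all were higher and 5.25% lower, and in STZ+AOS against AOS 31.8% and 6.1%. With median-ratio scaling 2637 and 2650 of 10804 genes were called, 50.0% and 49.9% of them higher. Among 13 other UGT rows 8 passed the filter. Ugt1a9 rose and Ugt3a1, whose enzyme uses another sugar donor, fell in STZ against Con (2 of 8 called). Ugt3a1 had 50.2, 61.8 and 57.4 RPKM in the Con mice and 9.93, 11.2 and 65.5 RPKM in the STZ mice, with STZ mouse 3 above Con (log2 difference -1.47, limma adjusted p = 0.0296). In STZ+AOS against AOS 1 of 8 was called, Ugt3a1, lower by 1.69 (adjusted p = 0.0144). With median-ratio scaling 0 were higher and 3 lower in STZ against Con: Ugt1a9 lost its call (0.33, adjusted p = 0.138), and Ugt1a6a (-0.41, adjusted p = 0.0225) and Ugt1a6b (-0.49, adjusted p = 0.0105), which share exons with Ugt1a1, were lower beside Ugt3a1. Ugt3a2 (0.31) and Ugt2b37 (-0.50) did not pass in STZ against Con.

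UDP-glucuronic acid is made from glucose phosphate in steps that include Pgm2, Ugp2, which makes UDP-glucose, and Ugdh, which oxidises it, and Slc35b1 belongs to the nucleotide sugar transporter family. The list held 7 genes, of which Slc35d1, Slc35b1 and Uxs1 are not steps of its making. In STZ against Con 2 of 7 were higher and 1 lower, where 30.8% of all tested genes were higher and 5.25% lower. Ugp2 had 56.1, 72.7 and 62.4 RPKM in the Con mice and 290, 264 and 194 RPKM in the STZ mice, without overlap (log2 difference 1.94, limma adjusted p = 6.8e-06). Pgm2 was higher by 0.65 (adjusted p = 0.00776) and Slc35b1 lower (-0.63, adjusted p = 0.0129). Ugdh went from 70.9 ± 7.15 to 89.8 ± 6.26 RPKM and did not pass (0.34, adjusted p = 0.0978). Between STZ+AOS and AOS 3 of 7 were higher, namely Ugp2 (1.53), Ugdh (0.70) and Pgm1 (0.59), and none was lower. With median-ratio scaling the counts were 1 higher and 2 lower in STZ against Con, where Pgm2 lost its call (0.38, limma adjusted p = 0.0501). They were 2 higher and 2 lower in STZ+AOS against AOS, where Pgm1 lost its call (0.40, adjusted p = 0.108). The lower genes were Slc35b1 and Uxs1 in both pairs.

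Of 7 genes that act on glucuronic acid or its conjugates 1 was called in each pair of groups: Rgn, a step of mouse ascorbate synthesis, was lower by 0.75 in STZ (limma adjusted p = 0.015) and by 1.32 in STZ+AOS (adjusted p = 0.000576). Gusb, the lysosomal glucuronidase that splits glucuronides, had 10.5 ± 1.17 RPKM in Con and 15.3 ± 3.22 in STZ (0.49, adjusted p = 0.0558). Dcxr (0.76, adjusted p = 0.0506) and Akr1a1 (0.27, adjusted p = 0.0589) also missed the threshold.

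Among 12 genes of haem breakdown and of transport of bilirubin and glucuronides 5 were higher and 2 lower in STZ against Con. The shares over all tested genes were 30.8% and 5.25%. Abcc2, which exports conjugated bilirubin into bile, had 20.0, 28.8 and 24.0 RPKM in the Con mice and 55.4, 65.8 and 55.1 RPKM in the STZ mice (log2 difference 1.25, limma adjusted p = 0.000475). Abcc3, which exports glucuronides to the blood, rose from 31.6 ± 11.1 to 103.7 ± 7.74 RPKM (1.74, adjusted p = 6.92e-05). Abcc4 went from 0.29 ± 0.0436 to 4.01 ± 1.78 RPKM (1.88, adjusted p = 0.000101) and the uptake carrier Slco1a4 from 5.59 ± 2.83 to 117 ± 45.5 RPKM (4.18, adjusted p = 1.61e-05). These 4 did not overlap between STZ and Con. The 2 called lower were the uptake carrier Slco1a1 (-3.80, limma adjusted p = 0.0207) and Abcg2 (-0.77, adjusted p = 0.0186). Slco1a1 had 125, 156 and 135 RPKM in the Con mice and 3.53, 0.85 and 117 RPKM in the STZ mice, with STZ mouse 3 nearest to Con. Between STZ+AOS and AOS 6 were higher and 3 lower. With median-ratio scaling both pairs had 4 higher (Abcc2, Abcc3, Abcc4 and Slco1a4) and 3 lower (Slco1a1, Abcg2 and Slco2b1). After transplant against STZ only Abcc4 passed, in Con-FMT (-1.36, adjusted p = 0.0386).

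Of 16 genes of transcription factors and their partners known to act on UGT genes 8 were higher and 0 lower in STZ against Con. In STZ+AOS against AOS these counts were 7 and 0. The shares of higher genes over all tested genes were 30.8% and 31.8%. With median-ratio scaling 4 and 2 of the 16 were higher and 0 lower. At that scaling 2637 and 2650 of 10804 genes were called, about as many higher as lower. Nfe2l2, the oxidative stress factor NRF2, was higher by 0.77 (limma adjusted p = 0.00119), its inhibitor Keap1 by 0.41 (adjusted p = 0.00249), Rxra by 0.52 (adjusted p = 0.00186) and Nr1i2, the xenobiotic receptor PXR, by 0.92 (adjusted p = 0.00207). With median-ratio scaling Keap1 (0.15, adjusted p = 0.192) and Rxra (0.26, adjusted p = 0.0665) lost their calls. Of 14 genes known as targets of such factors 10 were higher and 0 lower in each pair, and 8 and 9 higher with median-ratio scaling. Cyp4a10, a target of PPAR-alpha, went from 2.27 ± 0.852 to 1046 ± 306 RPKM and Cyp4a14 from 0.44 ± 0.208 to 802 ± 358 RPKM. Cyp2b10, a target of CAR, went from 1.20 ± 0.504 to 30.4 ± 7.55 RPKM and Nqo1, a target of NRF2, from 1.38 ± 0.395 to 11.5 ± 3.54 RPKM. STZ mouse 3 had the lowest STZ value for Cyp4a10 (696 RPKM), Cyp4a14 (409) and Nqo1 (7.37), as it had for Ugt1a1. The same held for the targets Cyp1a1, Tiparp, Srxn1, Vnn1 and Pdk4. It did not hold for the rest of the list. Mouse 3 lay between the other STZ mice for Cyp2b10 (26.7 RPKM), Cyp1a2, Gclm and Txnrd1. It had the highest STZ value for Cyp3a11 (8228 RPKM) and Gclc (105). In the transplants against STZ 1 of these targets passed, Vnn1 in A10-FMT (-1.25, adjusted p = 0.0447).

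Values of cell type markers are given beside these. Of 6 hepatocyte markers Cps1 and Hnf4a were higher and Apoa1, Serpina1a and Ttr lower in STZ than in Con. The summed stellate markers were 67.6 to 78.9 RPKM in Con and 105.5 to 126 in STZ (1 of 5 called, Dcn), and the summed erythroid markers 1256 to 1972 and 470 to 1874 (1 of 4 called, Alas2). The 5 Kupffer markers summed to 40.5 to 52.6 and 49.1 to 82.4 RPKM (1 called, Timd4), the 5 endothelial to 35.6 to 40.2 and 38.4 to 50.5 (2 called, Kdr and Pecam1) and the cholangiocyte markers to 23.1 to 41.2 and 21.3 to 41.2 (1 of 3 called, Sox9). The intestinal markers summed to 241 to 263 and 515 to 884 RPKM (1 of 2 called, Apoa4). Kidney tubule markers stayed at or below 5.29 RPKM in sum in every library. Pancreas markers summed to 0.35 to 29.2 RPKM in STZ+AOS, where 4 of 5 reached 1 RPKM in some library. In every other group their sum was at most 1.65 RPKM. With median-ratio scaling the calls of Hnf4a, Dcn, Timd4 and Pecam1 were lost. The part of these shifts in the values of the UGT genes was not tested.

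For each member the genes with the most similar values over all 18 livers were taken by Pearson's r of log2(RPKM + 1), as a description; the livers share their groups, so any gene that responds to STZ scores high. Ugt1a1 was nearest to Slc16a7, a monocarboxylate carrier (r = 0.98), and Mgrn1 (0.977). Ugt2b38 was nearest to Elovl3, a fatty acid elongase (0.964), and Nat8f5 (0.963). Ugt2b34 was nearest to Ephx1, the microsomal epoxide hydrolase (0.952), and Fbl (0.926), and Ugt2b35 to Sec23ip (0.925) and Lrrc8a (0.916). Ugt2b1 was nearest to Cyp2c67 (0.95) and Scp2 (0.935), and Ugt2a3 to Abca8a (0.937) and Akr1c6 (0.898). For Ugt2b5 the highest values were lower, with Trip4 (0.867) and Mug1 (0.83), as for Ugt2b36 with Pwp2 (0.877) and Lztfl1 (0.859).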

How the data were processed

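Liver RNA was enriched with oligo(dT) and sequenced by the authors on an Illumina HiSeq instrument. The deposited RPKM are the authors' read numbers per gene divided by gene length and mapped reads. The study's methods name SOAPaligner for the mapping, whereas the submitters' processing notes name Bowtie 0.12.2 and mm10; the sources do not say which one made the table. Of 19057 rows, 26 had symbols that look like dates, and 3 symbols occurred in more than 1 row. All rows of either kind, some of them of both, were left out, and 19029 remained. Steps between low values of 33 genes gave relative depths of 0.933 to 1.08, and with transcript lengths an estimate of 10500000 mapped reads for a library of relative depth 1 (quartiles 8830000 to 11900000 over 28 genes).

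The 10804 genes that reached 1 RPKM in 3 or more of the 18 libraries were tested on log2(RPKM + 1) with limma 3.58.1 in R 4.3.3 (1 model of 6 groups, eBayes with trend, two-sided), with Benjamini-Hochberg adjustment over the genes of a comparison, and called at an adjusted p under 0.05. The count test of the authors (DEGseq with MARS) needs read counts and was not used. On simulated data of STZ against Con with 10804 genes, 193 of 200 genes changed by 2 on the log2 scale were recovered, with 9 false calls. The changed genes were drawn from those with a mean level above that of Ugt2b38. The simulated noise of a gene was normal, with the same spread in every group. The recovery thus does not cover smaller changes, lower genes or groups with an uneven spread. The members and gene lists were chosen with earlier results of these data known. All 8 members are named in every comparison. Of each other list at most the 4 genes that ranked first by adjusted p between STZ and Con are named by rule. Ugp2, Ugdh, Gusb, Abcc2 and Abcc3 are named in any case, as are the 2 genes outside the UGTs nearest in pattern to each member. Other genes, called or not, were named after their values were seen. The labels number mice 1 to 3 in each group and name no pairing; p-values measure the spread between these mice.

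Gene positions and transcripts came from GENCODE M21 (GRCm38), and start regions from RefSeq (GRCm38.p6), matched for 8 of 8 members. Alternatives were median-ratio and quantile scaling, a pseudocount of 0.1, other filters, no trend, fewer groups in the fit, a stricter threshold, a replicate block and leaving out mice. Mice with the same number in A10-FMT and Con-FMT deviated together (correlations 0.12, 0.29 and 0.18). By the rule used (every pair over 0.1) this counts as pairing, and its origin is not given in the sources used here. No other pair of groups among the comparisons made here met the rule, and pairs of groups not compared were not checked.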

Additional observations from a re-analysis of the deposited data

How the results depend on the processing

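No called change of a member turned its direction under any alternative run. For the changes of single members 2331 alternatives kept the side of the threshold, 49 gained a call and 41 lost one. The number of members called in STZ against Con was 4, and 2 with quantile normalization and 2 at the stricter threshold (an adjusted p of 0.001 or less and a 2-fold change). At that threshold it was 2 of 5 in STZ+AOS against AOS, 2 of 5 in STZ+AOS against Con, and 0 of 3 in both transplant groups against Con, where the genes called in all went from 3899 to 306, 4092 to 298, 5114 to 522, 1839 to 78 and 1955 to 58. With only the groups compared in the fit, A10-FMT against Con had 6 members (3371 genes). Leaving out 1 mouse at a time gave 3 to 4 members in STZ against Con, 4 to 6 in STZ+AOS against AOS and against Con, 2 to 4 for A10-FMT and 1 to 4 for Con-FMT (both against Con), 0 to 5 for A10-FMT and 0 to 3 for Con-FMT (both against STZ), and 0 in the other comparisons; the 5 and the 3 came without STZ mouse 3, and Ugt1a1 passed in Con-FMT against STZ without STZ+AOS mouse 3. The genes called ranged from 2406 to 4652 in STZ against Con, 2764 to 4436 in STZ+AOS against AOS, 622 to 2433 and 479 to 2625 in A10-FMT and Con-FMT against Con, and 0 to 996 and 0 to 1319 against STZ. Leaving out both mice numbered 3 of STZ and STZ+AOS was a setting added after the data were seen. Against STZ it gave 5 members for A10-FMT (17.3% of all genes) and 4 for Con-FMT (18.9%). Against Con it gave 5 for each (28.3% and 29.8%) and 5 for STZ (49.0%), with Ugt2b1, Ugt2b5 and Ugt2b38 lower. For STZ+AOS it gave 7 members against AOS (37.5%), all but Ugt2b36, and 5 against Con (47.7%). Median-ratio scaling gave 2637, 2650, 1009 and 708 genes in STZ against Con, STZ+AOS against AOS, and A10-FMT and Con-FMT against Con. AOS against Con had 1 gene, and 43 with only these groups in the fit. The cause of these moves was not tested, other than that fewer mice or groups enter the fit.

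With the replicate number as a block the members called were 4 in STZ against Con (35.2% of all genes), 6 in STZ+AOS against AOS (37.2%; Ugt2b1 gained), 5 in STZ+AOS against Con (47.2%), 3 in A10-FMT against Con (15.8%) and 2 in Con-FMT against Con (16.2%; Ugt2b34 lost), with no other call of a member changed. Same-numbered mice of the groups compared correlated at -0.25 to 0.47. In the labels they share only a number, also in A10-FMT and Con-FMT, the pair that met the rule. For that pair a blocked fit of the 2 groups, added after the data were seen, gave 0 members and 0 genes. Depth limits Ugt2b38 most, with at most 187 estimated reads.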
